A study of Saccharomyces cerevisiae with 2 samples.

Results

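In budding yeast, chromatin folds into chromosome interaction domains, short stretches of neighboring genes whose nucleosomes contact each other more than they contact the chromatin beyond the domain's edges. Micro-C maps these contacts by cutting crosslinked chromatin with micrococcal nuclease and ligating the ends of nucleosomes that lie close together. SWR1 encodes the catalytic subunit of SWR-C, the remodeling enzyme that places the histone variant H2A.Z in nucleosomes beside promoters. From Micro-C of a swr1Δ strain the authors derived 1 compaction score per gene, and the genes described here are those at the upper end of that score. The genes were chosen by this score alone, as those above 1.0 in swr1Δ, which 94 of 4738 scored genes met (1.98%).

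All samples used were of 1 group, yeast of the W303 background deleted for SWR1 and fixed with formaldehyde at mid-log phase in YPD, a rich medium with glucose. For the 2 swr1Δ libraries, the deposited counts of read pairs by distance summed to 8804603 and 7314801. The score was deposited as a single column that names no library, so no score has an error or a replicate, and the read pairs behind each gene are unknown. The sources used here give neither the formula of the score nor which sign stands for a more compact gene, so values are called high or low and not compact or open. No other strain was analysed here. SWR1 itself is listed at -2.13 although the strain lacks it. Because the score chose the genes, their scores are a description, and no test was run on them.

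The 94 scores ranged from 1.01 to 2.31, with a median of 1.19 and quartiles of 1.08 and 1.45. The median of all 4738 genes was -0.0394, with quartiles of -0.342 and 0.248 and a standard deviation across genes of 0.555. Of the 94 genes, 3 lay above 2, 17 from 1.5 to 2 and 74 from 1.0 to 1.5. The upper end was thinner than the lower one, since 252 genes (5.32%) scored below -1.0 and 30 below -2. The genes just inside the limit were DYN1 (1.01), MAN2 (1.01) and BCD1 (1.01). Just outside it were PUL3 (0.997), HSP82 (0.996) and FUS1 (0.985). A further 43 genes lay between 0.9 and 1.0, so the limit falls on a slope and not in a gap.

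**Figure D1:**
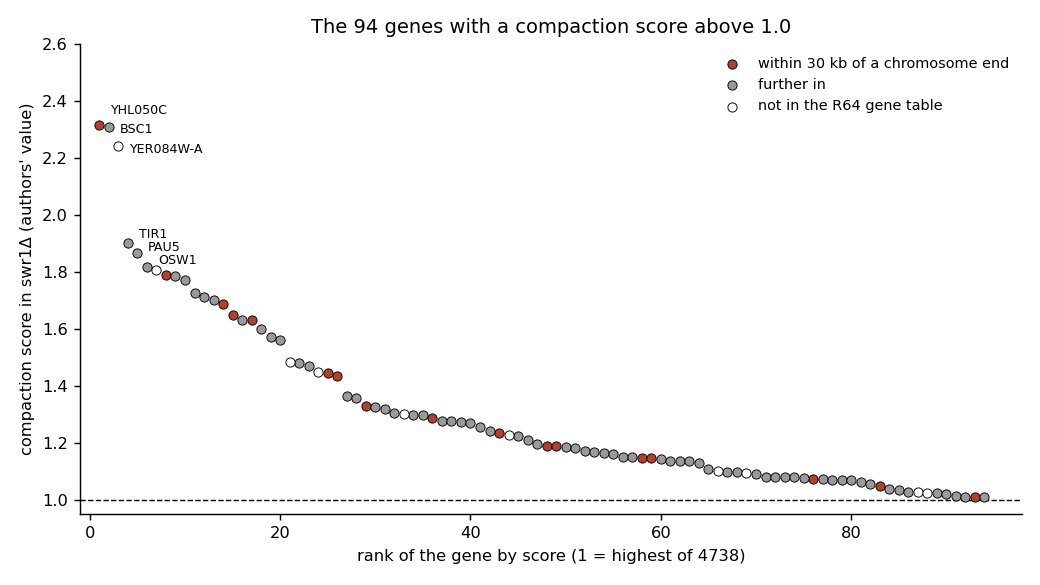
Compaction score in swr1Δ (vertical axis, the authors' value without unit) against rank among 4738 genes (horizontal axis) for the 94 genes above 1.0, with the 6 highest named. Red points lie within 30 kb of a chromosome end, grey points further in, and white points have no entry in the R64 gene table. The 3 highest genes stand apart, between 2.24 and 2.31, from the next at 1.90.

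The highest score, 2.31, belonged to YHL050C, an ORF of the repeated Y' sequence at the left end of chromosome VIII (positions 445 to 3311 of the sacCer3 assembly). BSC1 followed at 2.31. It lies on the left arm of chromosome IV (384601 to 385587), 383 kb from the outermost annotated gene of that end. YER084W-A came next at 2.24 and has no entry in the gene table. Below these 3 came TIR1 (1.90), which encodes a cell-wall mannoprotein, and PAU5 (1.87), a seripauperin. OSW1 (1.82), which acts in the outer layer of the spore wall, YNL203C (1.81), the enolase-related gene ERR3 (1.79), YDL114W (1.78) and SPS19 (1.77) completed the top 10. SPS19 encodes a peroxisomal dienoyl-CoA reductase expressed in sporulation. YGL138C (1.72), PRM7 (1.71), MLF3 (1.70), the formate dehydrogenase gene FDH1 (1.69) and TDA8 (1.65) were next.

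Genes of 19 lists of functions and families were then looked up, 384 scored genes in all. Of the 94 genes, 23 were in a list, and 8 lists held at least 1 of them. The counts below are to be read against the 1.98% of all genes and against the median of all genes. No list was tested for enrichment.

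Seripauperins and anaerobic mannoproteins, cell-wall proteins made mostly in the cold or without oxygen, had the largest share. TIR1 (1.90), PAU5 (1.87) and DAN4 (1.43) were above 1.0, 3 of 7 scored genes (42.9%). The other scored members were TIR4 (0.897), PAU7 (0.776), TIR3 (0.541) and TIR2 (0.52), so all 7 lay above the upper quartile of all genes and the median was 0.897. The gene table holds 30 genes of this list, and 23 of them have no score, so the 7 are not the family as a whole. TIR1 lies 175 kb and PAU5 99.2 kb from the nearest end, whereas DAN4 lies 28.3 kb from one.

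Of the hexose and polyol transporters, membrane proteins of the sugar permease family, 4 of 19 (21.1%) were above 1.0. These were the galactose permease gene GAL2 (1.27), HXT14 (1.16), HXT10 (1.07) and HXT11 (1.05). The list as a whole sat high, with a median of 0.596, 18 of 19 genes above 0 and 15 above the upper quartile of all genes. HXT9 (0.889) came next. HXT6 (0.71), HXT7 (0.609), HXT2 (0.674) and HXT4 (0.596), which encode high- or moderate-affinity glucose transporters, lay lower. HXT15 (0.667) lay in the same range. HXT12 (0.594), HXT16 (0.591), HXT5 (0.551), HXT13 (0.495) and HXT17 (0.239) lay below it. HXT3 (0.228), a low-affinity transporter, the glucose sensor genes SNF3 (0.281) and RGT2 (0.0839), and HXT8 (-0.102) were at the lower end. The sequences of these related genes were not compared here. How the authors treated reads shared between close relatives is not given, so the scores may not be separate for each gene.

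In the meiosis and sporulation list 7 of 54 scored genes (13.0%) were above 1.0, and the list median was 0.249. OSW1 (1.82) and the chitin deacetylase gene CDA2 (1.56) act in the spore wall, with SPS19 (1.77) between them in rank. MEI5 (1.30) and MND1 (1.15) encode factors that assist strand exchange between homologs, REC8 (1.10) the meiotic cohesin subunit and HOP1 (1.08) a protein of the chromosome axis. The list did not sit high throughout. Of its 54 genes 33 were above 0, and 3 lay below -1.0, namely MEI4 (-1.13), REC102 (-1.01) and SMA1 (-1.01). MEI4 and REC102 encode factors of meiotic double-strand break formation, as does REC104, which scored 0.466. IME1 (-0.187) and NDT80 (-0.143), the transcription factors that start and drive the program, were below the median of all genes.

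The pheromone response and mating list had 3 of 19 genes above 1.0 (15.8%) and a median of 0.0827. All 3 encode pheromone-regulated membrane proteins, PRM7 (1.71), PRM6 (1.22) and PRM10 (1.21). The other 4 scored PRM genes of the list, PRM1 (-0.00860), PRM2 (-0.0193), PRM5 (-0.266) and PRM4 (-1.08), were below 0. Outside the list, PRM9 scored 0.248 and PRM8 -0.322. Among glucose-repressed carbon genes, 3 of 18 were above 1.0 (16.7%) with a median of 0.367. They were FDH1 (1.69), GAL2 (1.27), counted here a second time, and POT1 (1.18), the thiolase of fatty acid oxidation. SFC1 (0.946) and MDH2 (0.945) were just under the limit. Other genes of the list were not high. They included GAL3 (0.1035) and GAL10 (-0.00060) of galactose use and PCK1 (-0.0937) of gluconeogenesis. MLS1 (-0.199) and ICL1 (-0.235) of the glyoxylate cycle were also among them.

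**Figure D2:**
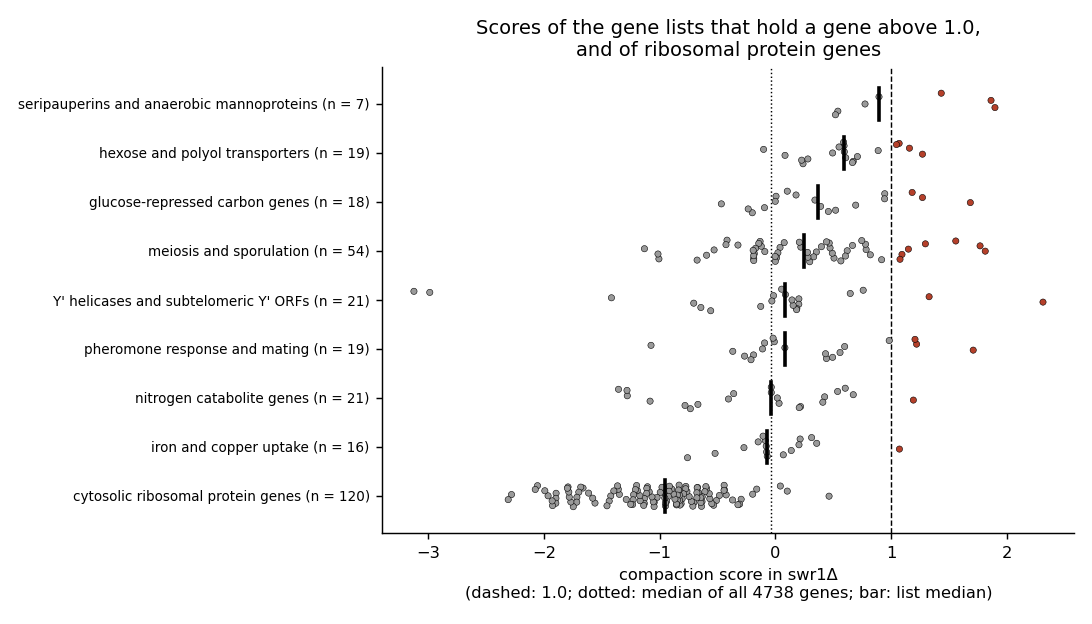
Compaction score (horizontal axis) of every scored gene in the 8 lists that hold a gene above 1.0, and of cytosolic ribosomal protein genes, the list with the most genes below -1.0. Red points are above 1.0, bars are list medians. The seripauperin and hexose transporter lists sit to the right of the median of all genes almost throughout, and the meiosis list and the Y' list spread to both sides of it.

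The remaining lists held few of the genes. DAL80 (1.19), a GATA-type repressor of nitrogen catabolite genes, was the only 1 of 21 in the nitrogen list, where DAL3 (-1.28) and ASP3-2 (-1.36) were low. FIT3 (1.07), a cell-wall mannoprotein that retains iron siderophores, was the only 1 of 16 among iron and copper uptake genes. The other 11 lists had none above 1.0. They were the flocculins and adhesins (0 of 8, highest FLO10 at 0.923), thiamine and pyridoxine genes (0 of 20, highest SNO4 at 0.922), phosphate genes (0 of 10, highest PHO89 at 0.957), glycolytic enzymes (0 of 17, highest HXK1 at 0.916) and aryl-alcohol dehydrogenases (0 of 6, highest AAD10 at 0.891). The DUP240 family (0 of 9), the COS family (0 of 9) and maltose and isomaltose genes (0 of 8) reached 0.673, 0.412 and 0.288. Histone genes (0 of 4) and genes in tandem repeats (0 of 6) had no score above 0. Cytosolic ribosomal protein genes had 0 of 120 above 1.0 against 54 of 120 below -1.0. That list was drawn by name and takes in RPP1 (0.465), a gene of an RNase P subunit, without which it holds 119 genes.

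The other 71 genes were in no list, and their roles are given from general knowledge, grouped after the genes had been seen. Membrane transporters among them were GEX1 (1.44) and GEX2 (1.15), glutathione exchangers, AMF1 (1.37), an ammonium facilitator listed as YOR378W, VBA3 (1.23), a vacuolar permease of basic amino acids, the arginine permease ALP1 (1.07), ATR2 (1.06) and CRC1 (1.27), the mitochondrial carnitine carrier. Mitochondrial and respiratory functions were represented by POR1 (1.14), the outer membrane porin, SDH2 (1.04), a subunit of succinate dehydrogenase, COQ1 (1.07), which builds the ubiquinone side chain, FMP30 (1.16), MCO32 (1.11) and RGI1 (1.07). Genes of cell cycle, chromosome and nuclear functions were CLB6 (1.30), an S-phase cyclin, STB1 (1.07), a regulator of G1 transcription, MMS21 (1.30), the SUMO ligase of the Smc5-Smc6 complex, and DEP1 (1.60), a subunit of the Rpd3L deacetylase. RNA functions were carried by LSM4 (1.09), the splicing factor CWC24 (1.02), the snoRNP assembly factor BCD1 (1.01), PHO92 (1.08), a reader of methylated mRNA, and MDN1 (1.03), also called REA1, of ribosome assembly.

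Proteins of sorting, modification and turnover made up a further set. ECM29 (1.63) encodes a proteasome-associated scaffold, CSI1 (1.08) a subunit of the COP9 signalosome, BET2 (1.17) and RAM2 (1.10) subunits of prenyltransferases, SNF7 (1.02) the main subunit of ESCRT-III, MDY2 (1.14) a factor of tail-anchored protein insertion and CPR8 (1.2535) a cyclophilin. DYN1 (1.01) encodes the dynein heavy chain. GLC8 (1.29) encodes a regulator of the phosphatase Glc7, and SDP1 (1.15) and PSR2 (1.03) encode phosphatases. SRL1 (1.14) is a cell-wall mannoprotein gene, IRC18 (1.17) acts in spore wall assembly, and GOR1 (1.32) encodes a glyoxylate reductase, UTR4 (1.01) an enzyme of methionine salvage and HBN1 (1.24) a nitroreductase-like protein. MLF3 (1.70), LSB5 (1.08), WWM1 (1.14), TDA7 (1.27) and TDA8 (1.65) are named genes whose roles are left out here. YIR016W (1.28), YDL218W (1.18) and YML083C (1.06) are annotated ORFs without a standard name.

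A set of glycogen genes was drawn up after the scores had been seen, so its count is a description only. It had 4 of 12 scored genes above 1.0 and a median of 0.613. They were ATG45 (1.48), a receptor for autophagy of glycogen listed as YIL024C, the glycogen phosphorylase gene GPH1 (1.33), GLC8 (1.29) and IGD1 (1.13), an inhibitor of the debranching enzyme. The regulator gene PIG1 (0.936) and the debranching enzyme gene GDB1 (0.868) were just below 1.0. The synthase genes GSY1 (0.359) and GSY2 (0.265) and the branching enzyme gene GLC3 (0.284) were moderate, and the glycogenin genes GLG1 (-0.864) and GLG2 (-0.695) were low.

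A standard name was missing in the score file for 25 of the 94 genes (26.6%), against 685 of 4738 genes (14.5%). Of these 25, 7 have since received a symbol that the gene table lists, so 19 genes, OPI9 among them for want of an entry, remained without a symbol in it (20.2%, against 9.81% of all genes). The gene table held no entry for 10 of the 94 (10.6%) and for 153 of all genes (3.23%). These 10 were YER084W-A (2.24), YNL203C (1.81), YOR248W (1.48), YCL076W (1.45), YPR160W-A (1.30), YKL145W-A (1.23), YDL158C (1.10), OPI9 (1.09), YCR102W-A (1.03) and YMR119W-A (1.02). The opposite tail had similar shares, with 62 of 252 genes below -1.0 unnamed (24.6%) and 26 absent from the table (10.3%). Both tails thus had larger shares of such ORFs than all genes had.

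The genes were short. The 84 with an entry had a median length of 985.5 bp, against 1347 bp for all 4585 genes with one, and 43 of 84 (51.2%) were under 1000 bp, against 31.6% of all. When the genes were put into 10 length classes of equal size, the share above 1.0 was highest in the second class (3.71%, 633 to 813 bp) and lowest in the ninth (0.437%, 2247 to 2958 bp). The shortest class, 87 to 633 bp, had 2.40%. Over the shorter 5 classes 60 of 2293 genes were above 1.0 (2.62%), and over the longer 5 classes 24 of 2292 were (1.05%). The lower tail leaned further toward short genes. Genes below -1.0 other than ribosomal protein genes made up 15.3% of the shortest class, and their median length was 715.5 bp. The standard deviation of the score was 0.782 in the shortest class and 0.406 in the longest.

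**Figure D3:**
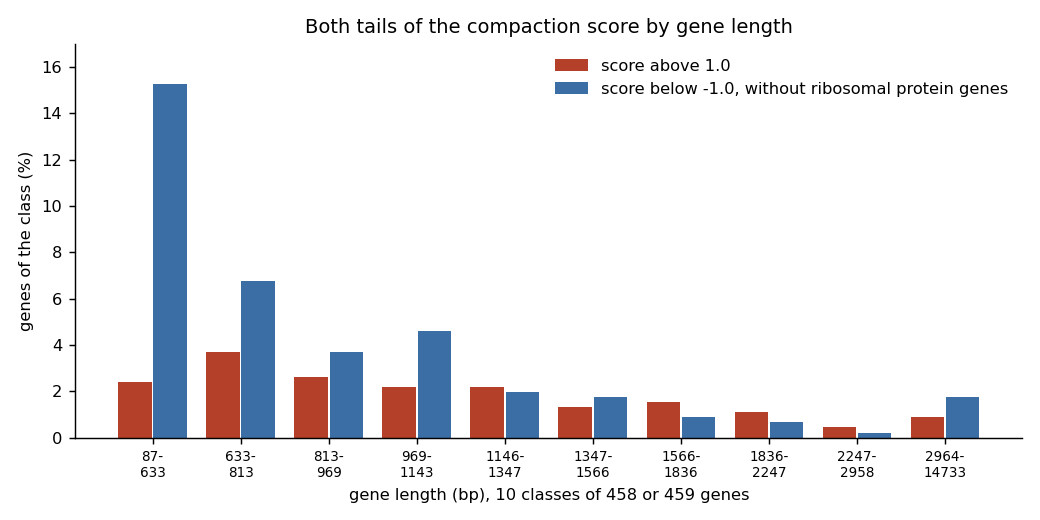
Share of genes (vertical axis, percent) with a score above 1.0 (red) and with a score below -1.0 outside the ribosomal protein genes (blue) in 10 classes of gene length (horizontal axis, bp). The blue share is highest in the shortest class (15.3%) and the red one in the second (3.71%), and both are lowest in the ninth.

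Long genes were not absent. MDN1 on chromosome XII, 14733 bp, scored 1.03, DYN1 on chromosome XI, 12279 bp, scored 1.01, and ECM29 on chromosome VIII, 5607 bp, scored 1.63. Of these 3, MDN1 and DYN1 lay close to the limit. The shortest gene with a known length was YOR192C-C at 237 bp (1.47).

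Genes near chromosome ends were frequent. Distance was taken from the outermost annotated gene of the nearer end. Of 84 genes, 17 (20.2%) lay within 30 kb, against 273 of 4585 (5.95%). Seen from the other side, 6.23% of the 273 genes near ends were above 1.0, against 1.55% of the 4312 genes further in. The difference was present among genes of at least 1000 bp (5.82% near ends, 1.02% further in) and among shorter ones (7.14% near ends, 2.71% further in). It was steepest in the last 10 kb, where 10 of 77 genes were above 1.0 (13.0%). The 10 included YHL050C and YFL066C of the repeated Y' sequence. ERR3, ERR2, GEX1, GEX2 and YFL061W belong to families with near-identical copies, described below. The others were YEL076C-A, VBA3 and MAN2. The 13.0% thus rests in large part on scores that are uncertain for each copy. From 10 to 20 kb the share was 3.49%, and from 20 to 30 kb 3.64%. Below -1.0 the shares were 4.40% near ends and 4.96% further in. With ribosomal protein genes left out, the share below -1.0 was 4.40% near ends and 3.82% further in, so the direction turned, and in the outer 10 kb genes below -1.0 made up 6.49%. In the deepest interval, 400 to 800 kb from an end, 2 of 697 genes were above 1.0 (0.287%).

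**Figure D4:**
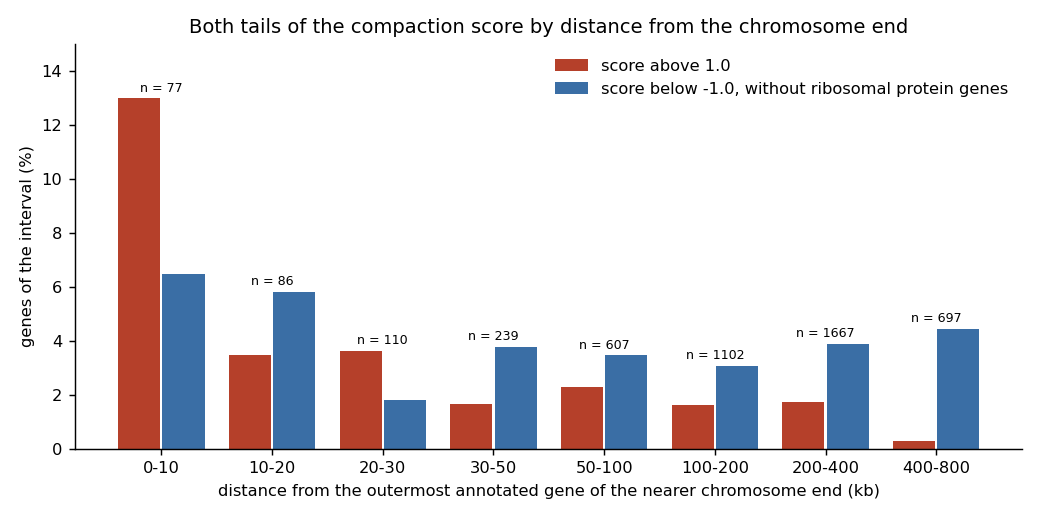
Share of genes (vertical axis, percent) with a score above 1.0 (red) and below -1.0 outside the ribosomal protein genes (blue) by distance from the outermost annotated gene of the nearer chromosome end (horizontal axis, kb). The number of genes is printed over each pair of bars. The red share is 13.0% in the first 10 kb and at most 3.64% in every other interval. Most genes above 1.0 in the first 10 kb are Y' ORFs or belong to families with near-identical copies.

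The 17 genes near ends included several that exist in near-identical copies. ERR3 on chromosome XIII (1.79) and ERR2 on XVI (1.19) are enolase-related genes, and ERR1 of the same family scored 0.823. GEX1 (1.44) lies near the left end of III and GEX2 (1.15) is the outermost annotated gene of the right end of XI. The cyanamide hydratase genes YNL335W (1.19) and YFL061W (1.15), near the left ends of XIV and VI, carry the names DDI3 and DDI2 in the score file, and the gene table gives these names the other way round. Reads cannot be assigned to 1 copy where copies are nearly identical, and how the authors treated such reads is not given in the sources used here, so these scores are uncertain for each copy. The copies were not compared in sequence here. Not every family was high together. VBA3 (1.23), also near the left end of III, was the only 1 of 5 scored VBA genes above 1.0. VBA5 scored 0.508, VBA1 0.283, VBA4 -0.621 and VBA2 -0.658.

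The Y' ORFs held both the highest and the lowest score of all genes. Of 21 scored ORFs, YHL050C (2.31) and YFL066C (1.33) were above 1.0 and held ranks 1 and 29 of 4738. YLL066C (-3.13), YLR464W (-2.99) and YRF1-1 (-1.42) were below -1.0. The median of the 21 was 0.0873. YEL076C-A (1.63) also lies at an end, the left end of chromosome V, and shares 651 bp with YEL076C, which has no score. The remaining genes within 30 kb of an end were FDH1, TDA8, DAN4, VBA3, GLC8, FIT3, HXT11 and MAN2, the last a mannitol dehydrogenase gene (1.01). The reads came from W303 and sacCer3 represents another strain, S288C. The part of strain differences in these scores was not tested.

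The genes were found on all 16 chromosomes but unevenly. Chromosome VI had 6 of 94 scored genes above 1.0 (6.38%) and chromosome III 6 of 118 (5.08%). Among them, YFL066C and YFL061W on VI and GEX1 and VBA3 on III lay within 30 kb of an end. The chromosome shares were not separated from distance to an end. Chromosome XIV had the most, 12 of 331 (3.63%). Chromosome II, with the same number of scored genes, had 1 (0.302%), COQ1. Chromosome IV had 6 of 611 (0.982%). Within 1 kb of a tRNA gene lay 4 of the 84 genes (4.76%), namely GPH1, CLB6, REC8 and POR1, against 6.19% of all genes.

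Most of the genes stood alone. Gene order was read from the systematic names, and 77 of the 94 had no other gene above 1.0 as nearest scored neighbor. Genes without a score were passed over, so nearest scored neighbors, also within a run, need not be adjacent on the chromosome. The 17 others (18.1%, against 3.86% of all genes with such a neighbor) formed 8 runs, 1 of 3 genes and 7 of 2. The run of 3 was at the left end of chromosome III, where YCL076W (1.45), GEX1 (1.44) and VBA3 (1.23) were followed inward by YCL068C (0.972), CHA1 (0.322) and VAC17 (0.545). PRM7 (1.71) and BSC1 (2.31) formed the highest pair. They lay between NAT1 (-0.137) and PUS9 (-0.51), and all 3 scored genes on each side were below 0. PRM7 and BSC1 are separate entries in the R64 gene table, and whether they are separate genes in W303 was not tested. SPS19 (1.77) and YNL203C (1.81) lay between RTT106 (-0.225) and PSY2 (-0.463). CDA2 (1.56) and DPA10 (1.36), listed as YLR307C-A, lay beside CDA1 (0.567), the other chitin deacetylase gene. SRL1 (1.14) with YOR248W (1.48), GPH1 (1.33) with YPR160W-A (1.30), HXT10 (1.07) with WWM1 (1.14) and YFL066C (1.33) with YFL061W (1.15) were the others. The genes of the last pair lie apart, at 1437 to 2615 and 9545 to 10222 of chromosome VI. Of the 8 runs, 4 contained an identifier without an entry in the gene table. Such identifiers have no position here, so whether they overlap the gene beside them was not tested. When those identifiers were left out, the share beside another gene above 1.0 was 11.9%, and the matching share over all genes was not computed. The opposite tail also had such neighbors. Of 252 genes below -1.0, 50 (19.8%) were next to another, where 482 of 4736 genes had such a neighbor. Without ribosomal protein genes these counts were 25 of 198 (12.6%) and 378 of 4736.

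**Figure D5:**
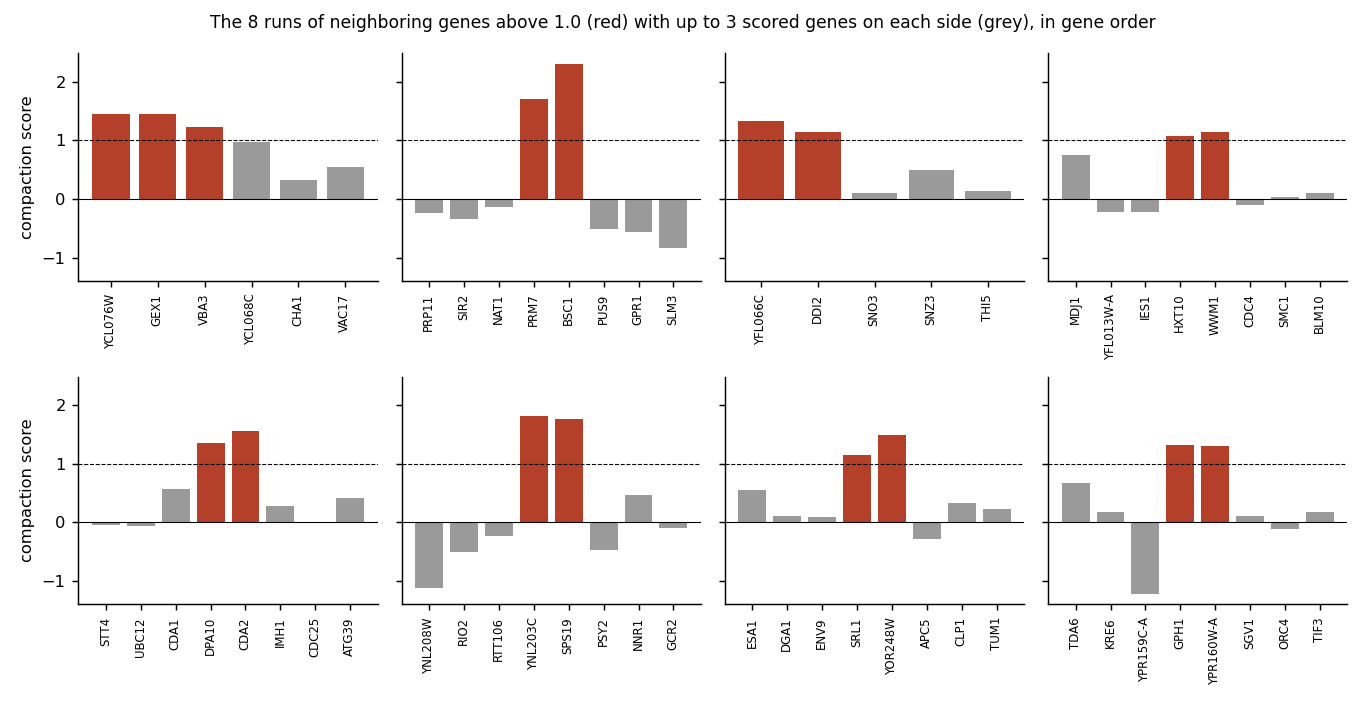
Compaction score (vertical axis) of the genes in the 8 runs above 1.0 (red) and of up to 3 scored genes on each side (grey), in the order of the systematic names (horizontal axis). The pair PRM7 and BSC1 rises from flanks that are all below 0, and the run at the left end of chromosome III continues into YCL068C at 0.972.

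The nearest scored neighbors that were not above 1.0 themselves, 166 genes, had a median of 0.0456, against -0.0394 for all genes. Of these neighbors 94 (56.6%) were above 0, against 46.2% of all genes, and 29 (17.5%) were above 0.5, against 11.4%. Over all 4720 neighboring pairs Pearson's r was 0.118, given as a description because the pairs share genes and libraries. Steep steps between nearest scored neighbors also occurred. MAN2 (1.01) had AIF1 (-2.84) as a nearest scored neighbor, MDY2 (1.14) had SHR5 (-2.63) and ERR3 (1.79) had YMR326C (-1.31). A neighbor below -1.0 was found for 6 of the 94 genes, the other 3 being GPH1, OPI9 and IGD1. PRM10 overlapped YJL107C (-0.773) by 4 bp and scored 1.21, and WWM1 overlapped AUA1, which has no score, by 167 bp.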

How the data were processed

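Micro-C of swr1Δ cells was processed by the authors, whose submitted processing notes name CASAVA 1.8.2, Bowtie2 and the sacCer3 build. The deposited compaction score is 1 value per gene, and its formula, read filters and combination of libraries are not given in the sources used here. The deposited counts of read pairs by distance, not normalized, served only for their total per library. Their columns carry no replicate number, and 0 per-sample columns were left unused.

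Genes with a score above 1.0 were taken as they stand. Lengths, positions and symbols came from the R64 gene table of RefSeq, in which 4585 of 4738 identifiers (96.8%) were found. The order of systematic names gave the same neighbors as the coordinates in 99.9% of pairs. No genome or protein sequence was used here, so none is printed and copies were not compared.

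The members and gene lists were chosen with earlier results of these data known. The genes named were the 15 highest, the 3 on either side of the limit, the 3 longest, those in lists, families or runs, and SWR1, and the others were named to account for the rest, except for an item that is not reported here. The methods name 3 biological replicates of swr1Δ, and the libraries used here, as labelled, are 2. Counts and medians were compared as descriptions. The functions were tested on simulated data with planted runs and lists. A 95% Wilson interval, or the binomial interval of a median, set whether an alternative moved a value, and for the number of genes a change of over 1.5 times. Tables were handled with pandas 2.3.3 and numpy 2.4.6 under Python 3.11.15, intervals came from scipy 1.17.1, and plots were drawn in matplotlib 3.10.9.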

Additional observations from a re-analysis of the deposited data

How the results depend on the processing

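Of 39 alternatives run, 33 stayed within the range set for the value given in the report, 6 moved and 0 were labelled reversed. The labels compare a value with its own range and not with all genes. The share of genes below -1.0 near ends, 5.31%, became 6.98% without ribosomal protein genes. It stayed within its range but crossed the 5.95% of all genes. The stricter planned limit left 41 genes in place of 94 and raised the share without a standard name to 36.6%. Genes of at least 1000 bp alone gave 41 genes, a median length of 1422 bp, 17.1% without a standard name and 4.88% next to another gene above the limit. These are smaller sets by construction. The share within 30 kb of an end was 20.2%. It was higher, 20.8% and 25%, under the other score limits and 26.8% in the longer genes. The share within 20 kb was 15.5%. The alternatives without identifiers absent from the gene table, without genes near ends, with the symbols of the gene table and without ribosomal protein genes were chosen after seeing the data. Protein paralogs, DNA copies and LTRs were planned and not run, since no sequence or LTR annotation was used here. Leaving out a library was not possible for a single score column, and the number of read pairs behind a score is unknown. No paired analysis was possible because both libraries are of 1 strain.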
